A study of Mus musculus with 9 samples.

Results

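The identity of lung macrophages was described by 9 genes of the 34638 in the deposited table. They were taken by symbol, and each symbol occurred once. *Marco*, *Pparg* and *Fabp4* are used as markers of alveolar macrophages, *Mrc1*, *Cd163*, *Lyve1* and *Folr2* as markers of interstitial and perivascular macrophages, and *Adgre1* (F4/80) and *Csf1r* (the CSF1 receptor) as markers of macrophages in general. Whole-lung RNA was sequenced from 9 C57BL/6 mice of WT genotype, 3 in each of 3 groups. Control mice received PBS into the trachea, IL-33 mice received 0.5 µg of recombinant mouse IL-33 by the same route on days 0, 1, 2 and 3, and IL-33+LM8 mice received the same IL-33 challenges, preceded by LM8, an inhibitor of the adaptor protein MyD88, injected intraperitoneally at 10 mg/kg. In the study's methods the control and IL-33 mice were females of 6 to 8 weeks and the PBS volume was 25 µL, with lungs collected on day 4; sex and age are not given there for the IL-33+LM8 mice. No group received LM8 without IL-33, so what LM8 does in an unchallenged lung was not measured. The libraries held between 53877663 and 90607218 counts.

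Alveolar macrophages live on the airspace side of the alveolar wall, where they take up inhaled particles and spent surfactant. Their differentiation depends on the cytokine GM-CSF and on the nuclear receptor PPARγ, and their maintenance needs no steady supply of blood monocytes. Interstitial macrophages lie in the tissue around vessels, nerves and airways, depend on CSF1, and are replaced from monocytes to a greater extent. All values here come from whole lung, in which fewer cells of a type and less RNA per cell cannot be told apart, and several of the 9 genes are also transcribed outside macrophages: *Fabp4* and *Pparg* in adipocytes, *Fabp4* in capillary endothelium, *Lyve1* in lymphatic and lung blood vessel endothelium and *Adgre1* in eosinophils. The alveolar type 2 cell list, used to check the labelled tissue, was led by *Sftpc* (surfactant protein C) with 11030 ± 530.1 FPKM (fragments per kilobase of transcript, scaled to library size; mean ± SD, n = 3) in control lungs.

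In each group 1 library deviated from the group mean together with 1 library of each other group. The deviations of control replicate 3 correlated with those of IL-33 replicate 1 at r = 0.71 and with those of IL-33+LM8 replicate 3 at r = 0.69, and those of IL-33 replicate 1 and IL-33+LM8 replicate 3 at r = 0.72 (across genes, which are not independent replicates). *Cebpb*, which encodes a myeloid transcription factor and was singled out after its values were seen, was listed at 34.2, 44.6 and 6.25 FPKM in these 3 libraries and at no more than 1.27 FPKM in the other 6. The 9 genes were therefore also tested with these 3 libraries left out, and the one call that this ended, that of *Fabp4*, is given where that gene is described.

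A gene was called when its Benjamini-Hochberg adjusted p in edgeR's quasi-likelihood test, adjusted over all genes tested, was under 0.05 and its log2 fold change was at least 1 in size. All 9 genes passed the filter on low values in every comparison. In IL-33 against control, 7 of the 9 were called higher and 1, *Marco*, was called lower, where 10.8% and 6.24% of the 16831 genes tested were called in these directions. In IL-33+LM8 against IL-33, *Marco* was called higher and *Fabp4* lower, with background shares of 1.46% and 3.93%. In IL-33+LM8 against control, *Mrc1*, *Cd163* and *Folr2* were called higher and 0 lower, with background shares of 5.87% and 1.46%; none of the 9 was lower at an unadjusted p under 0.05 in edgeR either, and DESeq2 and limma also called 0 lower. Adjusted p alone, with no minimum fold change, was passed by 7 higher and 2 lower genes in IL-33 against control (background 27.4% and 27.2%), by 3 higher and 5 lower in IL-33+LM8 against IL-33 (12.6% and 13.9%) and by 6 higher and 0 lower in IL-33+LM8 against control (16.3% and 13.4%). The mice of the groups compared did not overlap in FPKM for 9 of 9 genes in IL-33 against control (background 63.4%), for 8 of 9 in IL-33+LM8 against IL-33 (43.2%) and for 8 of 9 in IL-33+LM8 against control (47.3%). With 3 mice against 3, the exact two-sided permutation test of a single gene cannot go below 0.1, and every comparison without overlap sat at that value.

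**Figure D1:**
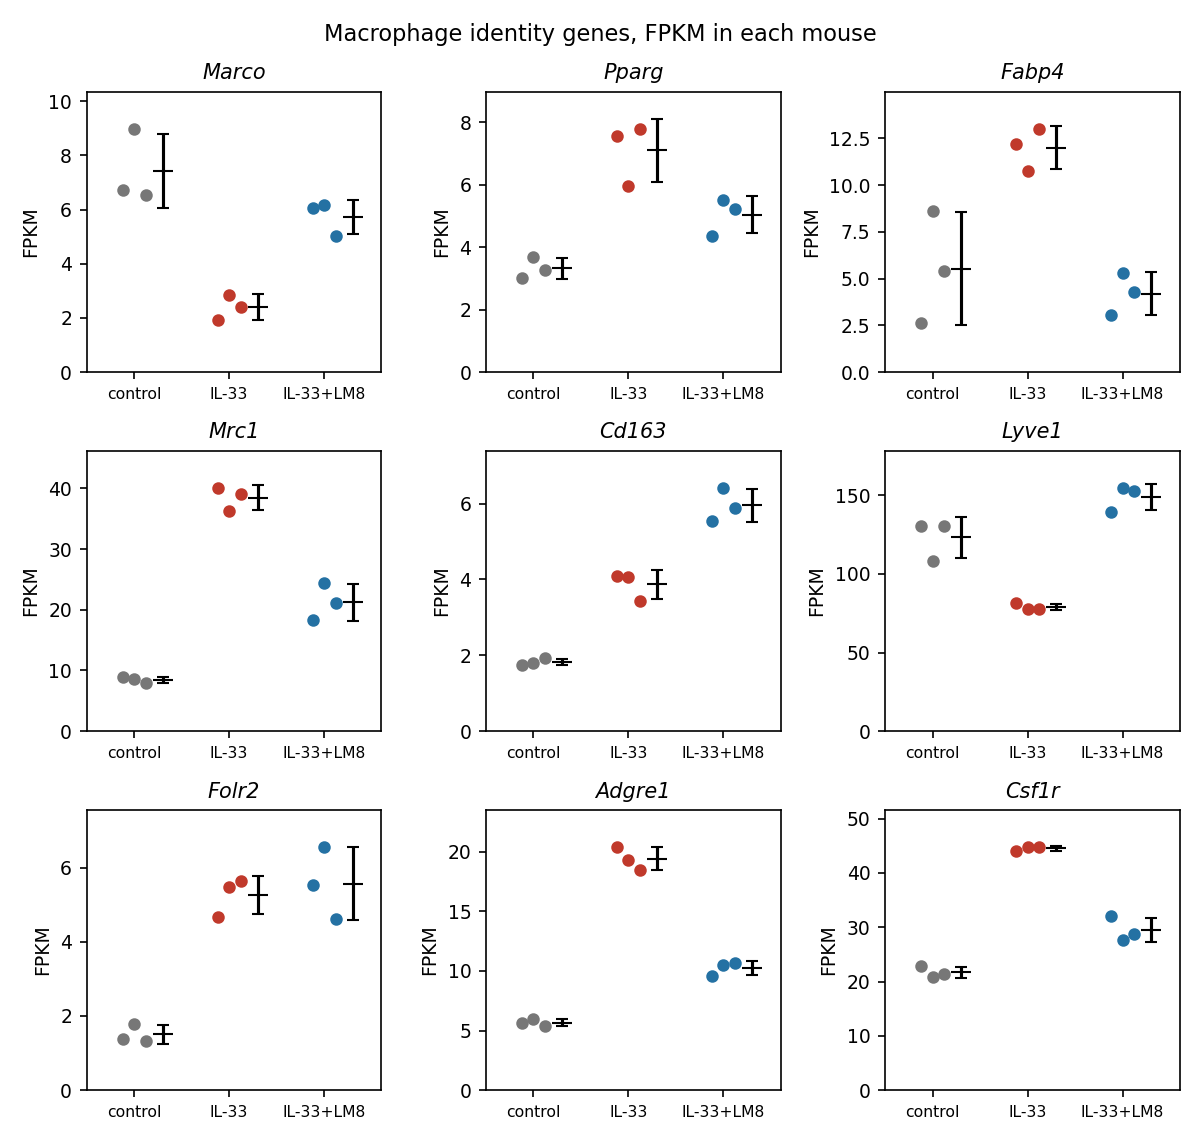
FPKM of each of the 9 genes (vertical axis, starting at 0, a scale of its own in each panel) in each mouse of the control (grey), IL-33 (red) and IL-33+LM8 (blue) groups; points are mice, and the bar beside them is the mean ± SD of 3 mice. *Marco* and *Lyve1* were lowest in the IL-33 mice, and the other 7 genes were lowest in control mice or, for *Fabp4*, in the IL-33+LM8 and control mice.

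**Figure D2:**
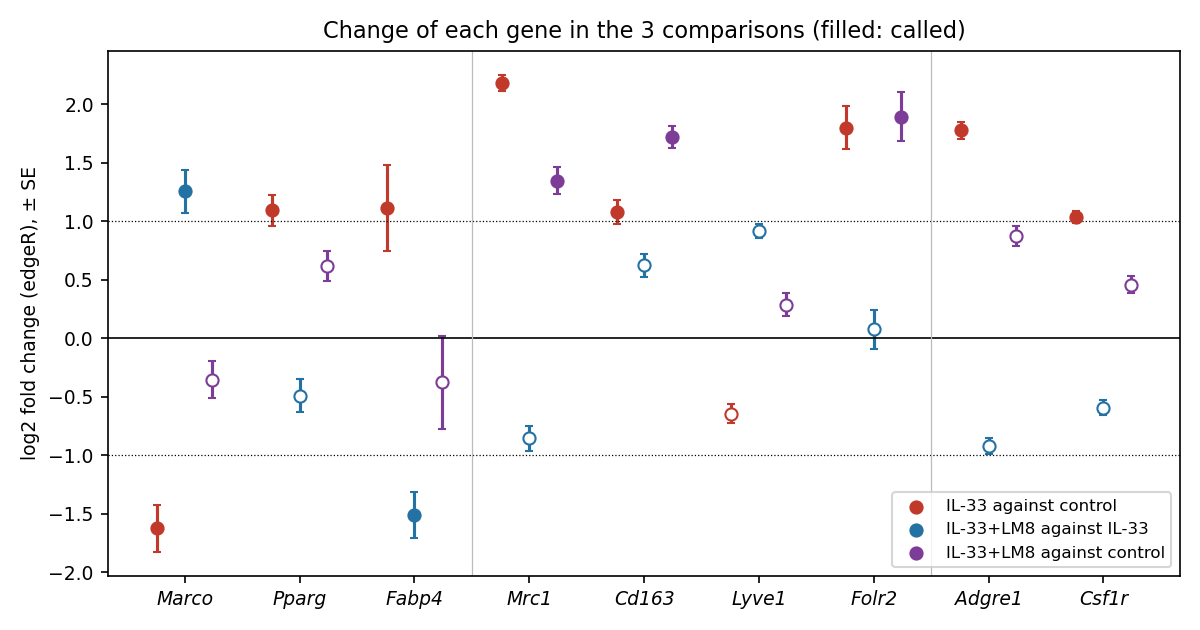
log2 fold change from edgeR with its SE (vertical axis) for each gene in IL-33 against control (red), IL-33+LM8 against IL-33 (blue) and IL-33+LM8 against control (purple); filled points were called, and the dotted lines mark the minimum of 1. The 3 comparisons share groups and are not independent of each other.

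*Marco* encodes a class A scavenger receptor that binds inhaled particles and bacteria, and lies on chromosome 1, from 120402267 to 120432753, in the table. Its FPKM was 6.72, 8.99 and 6.52 in the control mice, 1.91, 2.86 and 2.42 in the IL-33 mice and 6.04, 6.15 and 5.02 in the IL-33+LM8 mice. All 3 IL-33 mice were low, and neither other group overlapped with them. *Marco* fell 3.09-fold in mean FPKM with IL-33 (log2 fold change -1.63 ± 0.20 (SE), edgeR adjusted p = 0.000398) and was 2.39-fold higher with LM8 than with IL-33 alone (1.26 ± 0.18, edgeR adjusted p = 0.00241). The call with LM8 was lost with limma on log2(FPKM + 1), where the difference of 0.99 was under the minimum fold change (limma adjusted p = 0.0021). The IL-33+LM8 mice lay just under the control mice, without overlap, and this difference did not pass the test (-0.35 ± 0.16, edgeR adjusted p = 0.134). It was the only one of the 9 genes called lower in any comparison with control.

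*Pparg* encodes PPARγ, which directs the alveolar macrophage programme (chromosome 6, 115337912 to 115467360). Its FPKM was 3.02, 3.67 and 3.28 in control mice, 7.56, 5.95 and 7.80 in IL-33 mice and 4.37, 5.52 and 5.23 in IL-33+LM8 mice. The 3 groups did not overlap, and the IL-33+LM8 mice lay between the other two groups. *Pparg* rose 2.14-fold with IL-33 (log2 fold change 1.09 ± 0.13, edgeR adjusted p = 0.000384), so *Pparg* and *Marco*, both alveolar macrophage markers, moved in opposite directions in the same lungs. With limma on log2(FPKM + 1) the rise of *Pparg* was 0.90, under the minimum fold change, and the call was lost (limma adjusted p = 0.000621). Its differences of -0.49 (edgeR adjusted p = 0.0369) with LM8 against IL-33 and 0.62 (edgeR adjusted p = 0.0125) against control were under the minimum fold change. With the 3 deviating libraries left out, their edgeR adjusted p were 0.179 and 0.0926.

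*Fabp4* encodes a carrier of fatty acids and is a target of PPARγ (chromosome 3, 10269148 to 10273636). Its FPKM was 2.62, 8.61 and 5.38 in control mice, 12.2, 10.8 and 13.02 in IL-33 mice and 3.03, 5.28 and 4.28 in IL-33+LM8 mice. The control mice were spread more widely than for any other of the 9 genes, with a coefficient of variation of 54.2% against 18.5% for *Marco*, the next most variable. All IL-33 mice lay above all others, while the control and IL-33+LM8 mice overlapped. *Fabp4* was called 2.17-fold higher with IL-33 (log2 fold change 1.12 ± 0.37, edgeR adjusted p = 0.0358), a call that was lost when control replicate 1 or 3 or any one IL-33 mouse was left out (log2 fold changes from 0.78 to 1.20, edgeR adjusted p from 0.021 to 0.0985) and when the 3 deviating libraries were left out (1.09, edgeR adjusted p = 0.105). It fell 2.86-fold in mean FPKM with LM8 against IL-33 (-1.51 ± 0.20, edgeR adjusted p = 0.00147), a call kept with each mouse left out. Against control the difference was -0.38 ± 0.40 (edgeR adjusted p = 0.516).

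The adipocyte markers were measured beside *Fabp4* because adipocytes express it strongly. Their summed FPKM was 18.0, 85.7 and 47.0 in the control mice, 22.3, 12.8 and 30.8 in the IL-33 mice and 15.7, 34.8 and 24.97 in the IL-33+LM8 mice, and their most abundant gene was *Cfd* (complement factor D). In each of the 3 groups the order of the mice by *Adipoq* (adiponectin) was that by *Fabp4*: control replicate 2 was highest for both, with 9.11 FPKM of *Adipoq*, and control replicate 1 lowest for both, with 1.59. Between groups the order differed, since *Adipoq* averaged 5.27 FPKM in control mice and 2.44 in IL-33 mice (log2 fold change -1.11 ± 0.58, edgeR adjusted p = 0.147), while *Fabp4* was highest in IL-33 mice. Of the 5 adipocyte markers 3 were tested and 1, *Retn* (resistin), was called, lower with IL-33 at -2.50 ± 0.71 (edgeR adjusted p = 0.02), with none called in the other comparisons. *Lep* (leptin) had 0 counts in 6 of the 9 libraries. The part of adipocyte RNA in the *Fabp4* values was not tested.

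**Figure D3:**
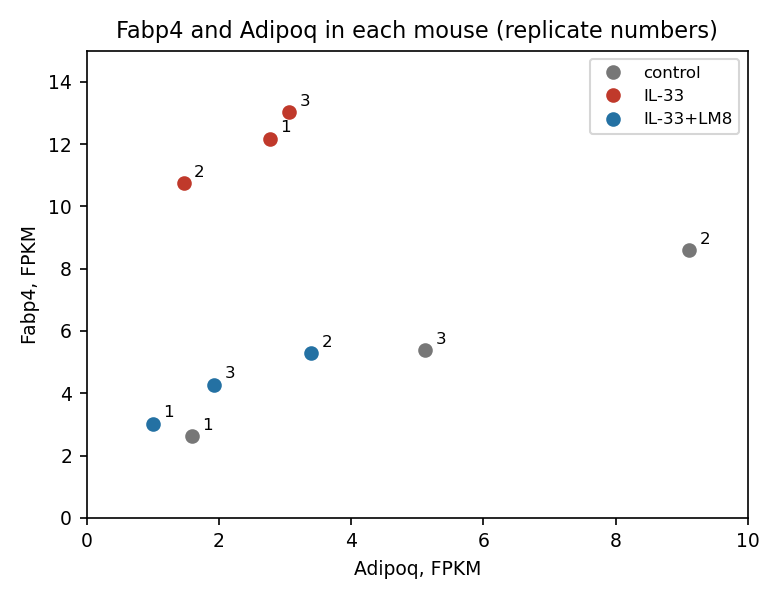
FPKM of *Fabp4* (vertical axis) against FPKM of *Adipoq* (horizontal axis) in each of the 9 mice, coloured by group, with replicate numbers. Within each group the mice have the same order for both genes, and the 3 IL-33 mice lie above the other 6 for *Fabp4* at *Adipoq* values between 1.47 and 3.07.

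*Mrc1* encodes the mannose receptor CD206, which both alveolar and perivascular macrophages carry (chromosome 2, 14234203 to 14336868). Its FPKM was 8.92, 8.52 and 7.90 in control mice, 40.1, 36.2 and 39.1 in IL-33 mice and 18.3, 24.4 and 21.1 in IL-33+LM8 mice. No groups overlapped. *Mrc1* rose 4.56-fold with IL-33 (log2 fold change 2.19 ± 0.07, edgeR adjusted p = 1.26e-06), the largest change among the 9 genes in that comparison. With LM8 it was 0.86 lower on the log2 scale than with IL-33 alone, under the minimum fold change (-0.86 ± 0.11, edgeR adjusted p = 0.00126), and it stayed 2.52-fold higher than in control mice (1.35 ± 0.11, edgeR adjusted p = 0.000282).

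*Cd163* encodes the receptor that takes up haemoglobin bound to haptoglobin (chromosome 6, 124281615 to 124307486). Its FPKM was 1.75, 1.81 and 1.92 in control mice, 4.10, 4.07 and 3.43 in IL-33 mice and 5.54, 6.42 and 5.89 in IL-33+LM8 mice. The groups did not overlap and stood in the order control, IL-33, IL-33+LM8. *Cd163* rose 2.12-fold with IL-33 (log2 fold change 1.08 ± 0.10, edgeR adjusted p = 0.00011) and was 3.26-fold higher than control with LM8 added (1.72 ± 0.09, edgeR adjusted p = 4.7e-05). Its call with IL-33 alone was lost with limma on log2(FPKM + 1), at a difference of 0.78 (limma adjusted p = 0.000251). Between the IL-33 groups it was 0.62 ± 0.10 higher with LM8, which passed the adjusted p (edgeR, 0.00338) but not the minimum fold change. The neutrophil list stood in the same order, with a summed FPKM of 20.1 to 27.9 in control mice, 162 to 184 in IL-33 mice and 812 to 935 in IL-33+LM8 mice. All 5 of its genes were called higher with IL-33, 4 of 5 higher again with LM8 and all 5 higher with LM8 than in control, its most abundant gene was *S100a9* in control and IL-33+LM8 mice and *Retnlg* in IL-33 mice, and *Ly6g* had 0 counts in control replicate 3. Whether the neutrophil signal has a part in the *Cd163* values was not tested.

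*Folr2* encodes folate receptor β (chromosome 7, 101489195 to 101506401). Its FPKM was 1.39, 1.80 and 1.33 in control mice, 4.67, 5.49 and 5.64 in IL-33 mice and 5.52, 6.57 and 4.60 in IL-33+LM8 mice. All 6 challenged mice lay above all control mice, and the IL-33 and IL-33+LM8 mice overlapped. *Folr2* rose 3.50-fold with IL-33 (log2 fold change 1.80 ± 0.18, edgeR adjusted p = 0.000157) and was 3.70-fold higher than control with LM8 added (1.90 ± 0.21, edgeR adjusted p = 8e-04). It was the gene of the 9 with the smallest difference between the IL-33 groups (0.08 ± 0.17, edgeR adjusted p = 0.782, exact two-sided permutation p = 0.9).

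*Lyve1* encodes a hyaluronan receptor (chromosome 7, 110449814 to 110462446) and was the most abundant of the 9 genes in every group. Its FPKM was 131, 108.5 and 131 in control mice, 81.5, 78.0 and 77.6 in IL-33 mice and 139, 155 and 153 in IL-33+LM8 mice. The IL-33 mice were low, the IL-33+LM8 mice high, and no groups overlapped. *Lyve1* was 0.64 ± 0.08 lower on the log2 scale with IL-33 (edgeR adjusted p = 0.000452) and 0.92 ± 0.06 higher with LM8 than with IL-33 alone (edgeR adjusted p = 0.000138), both under the minimum fold change. Against control, IL-33+LM8 mice were 0.29 ± 0.10 higher (edgeR adjusted p = 0.0606). It therefore did not move with *Mrc1*, *Cd163* and *Folr2*, the other markers of perivascular macrophages among the 9, which rose with IL-33. In the list of 14 other interstitial macrophage genes, *Cbr2* and *Selenop*, its most abundant genes, moved as *Lyve1* did. They were lower with IL-33 and higher with LM8 than with IL-33 alone by adjusted p, while 8 of that list were higher with IL-33.

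Endothelial lists were measured beside *Lyve1*. The summed FPKM of the 8 blood endothelial markers was 828 to 981 in control mice, 528 to 598 in IL-33 mice and 818 to 892 in IL-33+LM8 mice, led by *Cldn5* (claudin-5) in both groups given IL-33. Of these markers 4 were called lower with IL-33, among them *Kdr* (VEGF receptor 2; -1.24 ± 0.07, edgeR adjusted p = 9.75e-06) and *Ednrb* (endothelin receptor B; -1.21 ± 0.06, edgeR adjusted p = 6.22e-06), and 7 of 8 were higher with LM8 than with IL-33 by adjusted p alone, with a median of 0.58; none was called in either comparison of the IL-33+LM8 mice. The 5 lymphatic markers summed to 80.1 to 86.7, 56.3 to 58.6 and 61.3 to 81.3 FPKM, led by *Ccl21a*, and none was called in any comparison, although 4 passed the adjusted p alone with IL-33 (1 higher and 3 lower). No blood or lymphatic marker was at 0 in any library, and *Lyve1* alone exceeded the sum of the lymphatic list in every mouse. The part of endothelial RNA in the *Lyve1* values was not tested.

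*Adgre1* encodes F4/80, the classical surface marker of mouse macrophages (chromosome 17, 57665691 to 57790527). Its FPKM was 5.61, 5.96 and 5.38 in control mice, 20.4, 19.3 and 18.5 in IL-33 mice and 9.58, 10.5 and 10.6 in IL-33+LM8 mice. The groups did not overlap. *Adgre1* rose 3.43-fold with IL-33 (log2 fold change 1.78 ± 0.07, edgeR adjusted p = 2.36e-06). It was 0.92 lower in IL-33+LM8 than in IL-33 mice (-0.92 ± 0.07, edgeR adjusted p = 0.000208) and 0.87 ± 0.09 higher than in control (edgeR adjusted p = 0.000513), both under the minimum fold change. The eosinophil list, whose cells also carry F4/80, summed to 3.82 to 4.45 FPKM in control mice, 33.7 to 38.4 in IL-33 mice and 7.09 to 7.39 in IL-33+LM8 mice, led in control mice by *Siglecf*, at 3.40 FPKM against 0.176 of *Prg2*, and in the others by *Prg2*. The 4 of its 5 genes that were tested were all called higher with IL-33 and all lower with LM8, 2 were called higher with LM8 than in control, and *Epx* (eosinophil peroxidase) had 0 counts in the 3 control libraries. Its part in the *Adgre1* values was not tested.

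*Csf1r* encodes the receptor for CSF1 and IL-34, on which most tissue macrophages depend. Its FPKM was 22.8, 20.9 and 21.4 in control mice, 44.0, 44.7 and 44.9 in IL-33 mice and 32.1, 27.7 and 28.7 in IL-33+LM8 mice. The IL-33 mice were closest to each other here, with a coefficient of variation of 0.994%, and no groups overlapped. *Csf1r* rose 2.05-fold with IL-33 (log2 fold change 1.04 ± 0.05, edgeR adjusted p = 6.48e-06), close to the minimum fold change. It was 0.59 lower in IL-33+LM8 than in IL-33 mice (-0.59 ± 0.06, edgeR adjusted p = 0.00059) and 0.46 ± 0.07 above control (edgeR adjusted p = 0.0042), both under that minimum.

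By mean FPKM, the IL-33+LM8 mice lay between the control and IL-33 mice for 5 of the 9 genes (*Marco*, *Pparg*, *Mrc1*, *Adgre1* and *Csf1r*). For *Fabp4* and *Lyve1* they lay past the control mean, and for *Cd163* and *Folr2* past the IL-33 mean. In control lungs the order of levels was *Lyve1*, *Csf1r*, *Mrc1*, *Marco*, *Adgre1*, *Fabp4*, *Pparg*, *Cd163* and *Folr2*, from 123 to 1.504 FPKM, and the ranges of *Mrc1* and *Marco*, of *Adgre1*, *Fabp4* and *Pparg* in turn, and of *Cd163* and *Folr2* overlapped. In IL-33 lungs *Marco* was last, at 2.40 ± 0.48 FPKM (SD, n = 3), and the ranges of neighbours in the order were apart throughout. In IL-33+LM8 lungs *Lyve1*, *Csf1r*, *Mrc1* and *Adgre1* kept the first 4 places, and *Cd163*, *Marco*, *Folr2*, *Pparg* and *Fabp4* followed at 5.95 to 4.198 FPKM, each overlapping in range with the next.

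Levels were also set against *Csf1r* in the same mouse, as a description without a test. *Marco* stood at 0.295 to 0.430 of the *Csf1r* FPKM in control mice, 0.0433 to 0.0641 in IL-33 mice and 0.175 to 0.222 in IL-33+LM8 mice. On this scale no group overlapped with another, and the IL-33+LM8 mice lay between the other groups. *Pparg* held 0.133 to 0.176, 0.133 to 0.174 and 0.136 to 0.199 of the *Csf1r* FPKM, so that its ratio overlapped in all 3 groups. *Cd163* held 0.0770 to 0.0899, 0.0765 to 0.0930 and 0.173 to 0.232: control and IL-33 mice overlapped, and the IL-33+LM8 mice lay above both. *Mrc1* held 0.370 to 0.407 in control mice and 0.810 to 0.912 in IL-33 mice, with IL-33+LM8 mice at 0.570 to 0.879, and *Lyve1* was 5.19 to 6.12, 1.73 to 1.85 and 4.34 to 5.59 times the *Csf1r* FPKM.

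**Figure D4:**
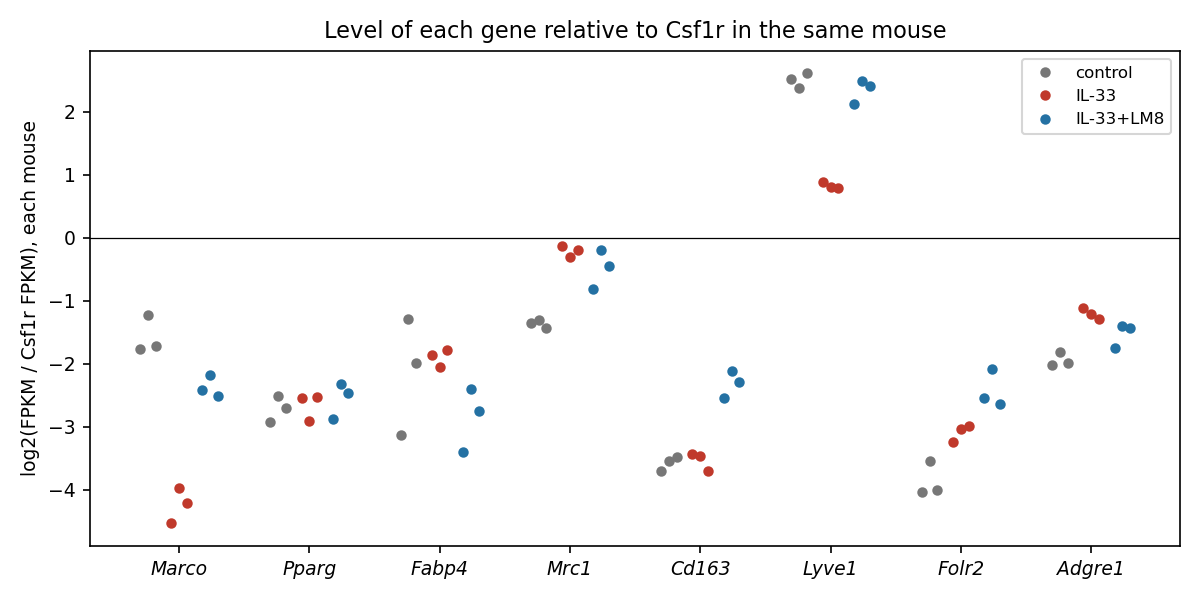
log2 of the FPKM of each of 8 genes over the FPKM of *Csf1r* in the same mouse (vertical axis), for control (grey), IL-33 (red) and IL-33+LM8 (blue) mice; each point is a mouse. *Marco* and *Lyve1* are lowest in IL-33 mice, *Pparg* overlaps in all groups, and *Cd163* is highest in IL-33+LM8 mice.

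RefSeq promoters of build GRCm38.p6 were used for 5 of the 9 genes, *Marco*, *Mrc1*, *Pparg*, *Cd163* and *Folr2*, with 8 starts in all. Since *Marco* was the one gene called lower with IL-33 and *Mrc1* the one with the largest rise, the 250 bases before their starts are shown 5′ to 3′ on the strand of the gene, with matches to GAGGAA, the core motif of the macrophage factor PU.1, or to its reverse complement TTCCTC, in capitals. The *Marco* stretch is chr1:120505025-120505274 on the minus strand, and the *Mrc1* stretch chr2:14229164-14229413 on the plus strand.
Marco: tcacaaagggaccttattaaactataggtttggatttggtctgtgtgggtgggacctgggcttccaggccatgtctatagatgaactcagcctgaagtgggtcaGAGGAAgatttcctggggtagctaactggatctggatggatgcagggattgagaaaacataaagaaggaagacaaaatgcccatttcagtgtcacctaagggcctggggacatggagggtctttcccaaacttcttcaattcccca
Mrc1: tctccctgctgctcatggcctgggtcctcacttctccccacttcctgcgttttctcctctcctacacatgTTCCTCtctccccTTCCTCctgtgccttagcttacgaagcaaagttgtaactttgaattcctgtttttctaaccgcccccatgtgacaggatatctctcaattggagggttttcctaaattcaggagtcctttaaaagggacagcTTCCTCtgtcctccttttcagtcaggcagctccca
The *Marco* stretch held 1 match, from 146 to 141 bases before the start, and the *Mrc1* stretch 3, all on the opposite strand, the nearest from 35 to 30 bases before the start. The same motif was in 1 of the 3 *Pparg* stretches, from 240 to 235 bases before the start. Of all 32851 promoter stretches of this length, 23.3% held the motif on either strand. AGGTCA, a nuclear receptor motif, was in 2 of the 3 *Pparg* starts and in 14.0% of all stretches, and TGCTGA, a motif of MAF factors, was in both *Folr2* starts and in 16.1% of all. None of the 3 motifs was in the *Cd163* stretch. The motifs share no overlap in these stretches, and a match is a match of letters only, on which the expression data do not bear.

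Other genes of the alveolar macrophage programme were taken from a list of 13, of which 3 were called higher and 2 lower with IL-33 (median log2 fold change 0.37, against -0.01 over all genes tested). *Chil3* (Ym1, a chitinase-like protein) averaged 203 ± 17.5 FPKM in control, 4354 ± 294 in IL-33 and 1951 ± 162 in IL-33+LM8 mice, a rise of 4.42 ± 0.10 with IL-33 and a fall of 1.16 ± 0.10 with LM8 on the log2 scale (edgeR adjusted p = 6.04e-07 and 0.000281). *Itgax* (CD11c) rose by 3.06 ± 0.10 with IL-33 (edgeR adjusted p = 1.42e-06), and *Atp6v0d2*, a subunit of the vacuolar proton pump, by 2.19 ± 0.08 (edgeR adjusted p = 2.05e-06). *Krt79* and *Cidec*, chosen after their values were seen, were the pair called lower. *Krt79* went from 2.93 to 1.23 FPKM (-1.25 ± 0.17, edgeR adjusted p = 0.000606) and was higher again with LM8 at 2.83 (1.20 ± 0.15, edgeR adjusted p = 0.00132), the only gene of this list called in the same directions as *Marco*. *Cidec*, a lipid droplet protein also made by adipocytes, went from 8.63 to 2.61 FPKM (-1.72 ± 0.30, edgeR adjusted p = 0.00212). With LM8 against IL-33, 1 was called higher and 5 lower (median -0.49), and against control 3 higher and 3 lower (median 0.07). *Ear1*, an eosinophil-associated ribonuclease gene made by alveolar macrophages, was lowest with LM8, at 5.51 FPKM against 19.4 in control (-1.80 ± 0.15, edgeR adjusted p = 0.000263), and belongs to a family of near-identical copies, so its counts are uncertain. *Plet1* averaged 22.4, 37.0 and 53.0 FPKM and was called higher with LM8 against control (1.26 ± 0.15, edgeR adjusted p = 0.0011). *Fabp1*, singled out after its values were seen for its spread, ran from 0 FPKM in IL-33 replicate 1 to 16.9 in control replicate 2. *Siglecf*, kept in the eosinophil list although alveolar macrophages carry it too, averaged 3.40 FPKM in control, 7.95 in IL-33 and 1.93 in IL-33+LM8 mice (1.22 ± 0.11 with IL-33, edgeR adjusted p = 7.03e-05; -2.04 ± 0.12 with LM8 added, edgeR adjusted p = 8.11e-05).

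Of 14 other interstitial macrophage genes, 7 were called higher and 1 lower with IL-33 (median 0.95). By adjusted p with no minimum fold change, 8 were higher and 5 lower with IL-33. On the same criterion 3 were higher and 7 lower in IL-33+LM8 against IL-33, and 5 higher and 2 lower in IL-33+LM8 against control. The complement genes *C1qa*, *C1qb* and *C1qc* rose together, *C1qb* from 23.3 ± 2.08 to 186 ± 8.18 FPKM (2.99 ± 0.08, edgeR adjusted p = 8.53e-07). *Ms4a7* rose by 2.95 ± 0.25 (edgeR adjusted p = 6.09e-05). With LM8 5 fell against IL-33 and 1 rose (median -0.36): *Ms4a7* fell by 2.76 ± 0.14 (edgeR adjusted p = 4.85e-05), to 0.605 FPKM against 0.530 in control. Against control 4 were called higher and 0 lower with LM8 (median 0.44), with *Mgl2*, a lectin of macrophages and dendritic cells, at 69.6 against 13.6 FPKM (2.37 ± 0.10, edgeR adjusted p = 2.04e-05). The gene called lower with IL-33 was *Cbr2*, at 2247 FPKM in control and 500 in IL-33 mice (-2.17 ± 0.09, edgeR adjusted p = 2.46e-06), and called higher with LM8 (1.37 ± 0.13, edgeR adjusted p = 0.000397); it is an enzyme also abundant in airway epithelium. *Selenop*, a secreted selenoprotein, averaged 319, 193 and 253 FPKM and was not called in any comparison. It was among the 5 lower with IL-33 by adjusted p alone (-0.72 ± 0.07, edgeR adjusted p = 8.49e-05).

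Among 9 growth and lineage factors, 5 were called higher and 0 lower with IL-33 (median 1.29). These were both chains of the GM-CSF receptor, *Csf2ra* (9.88 to 48.3 FPKM, 2.29 ± 0.17, edgeR adjusted p = 3.25e-05) and *Csf2rb* (4.40 to 23.0 FPKM, 2.38 ± 0.07, edgeR adjusted p = 1e-06), the PU.1 gene *Spi1* (7.06 to 33.4 FPKM, 2.24 ± 0.14, edgeR adjusted p = 1.65e-05), *Bhlhe40* and *Tgfb1*, the last chosen after its values were seen. The ligand genes were not called: *Csf2* (GM-CSF) averaged 1.96 and 2.05 FPKM, *Csf1* 9.50 and 11.5, and *Il34* 12.6 and 10.2. With LM8 only *Csf2ra* was called lower against IL-33 (-1.23 ± 0.14, edgeR adjusted p = 0.00095; list median -0.61), and against control 4 were called higher (median 0.75).

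Of the 6 partners and targets of PPARγ, *Plin2*, which coats lipid droplets, rose with IL-33 from 30.5 to 65.5 FPKM (1.10 ± 0.08, edgeR adjusted p = 4.11e-05) and *Pdk4*, a kinase that limits glucose oxidation, fell from 11.9 to 4.32 FPKM (-1.47 ± 0.17, edgeR adjusted p = 0.000256), with a list median of -0.52 while *Pparg* itself rose. None of the 6 passed both thresholds between the IL-33 groups (median 0.38) or against control (median -0.25). By adjusted p with no minimum fold change, 1 was higher and 4 lower in IL-33 against control. Among the lower was *Angptl4*, which went from 30.6 to 15.7 FPKM (-0.97 ± 0.09, edgeR adjusted p = 0.000123). On the same criterion 4 were higher and 2 lower in IL-33+LM8 against IL-33, and 1 was higher and 2 lower in IL-33+LM8 against control.

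Of the 8 other scavenger and endocytic receptors, 3 rose and 1 fell with IL-33 (median 0.16). *Msr1*, a class A scavenger receptor like *Marco*, rose from 0.313 to 3.89 FPKM (3.62 ± 0.25, edgeR adjusted p = 2.52e-05), and *Cd68* from 19.9 to 107 (2.42 ± 0.12, edgeR adjusted p = 5.74e-06). *Stab2* rose by 2.79 ± 0.16 (edgeR adjusted p = 1.1e-05). *Scara5*, the one that fell, is a class A receptor too (-1.19 ± 0.12, edgeR adjusted p = 0.000127; chosen after its values were seen). With LM8 the 3 that had risen were called lower against IL-33 and higher against control (medians -0.15 and 0.28). Among 8 genes of haem and folate handling, 7 were tested, and *Hmox1*, which degrades haem, was the one called: 17.4, 90.8 and 34.9 FPKM, higher with IL-33 (2.38 ± 0.08, edgeR adjusted p = 1.55e-06), lower with LM8 against IL-33 (-1.38 ± 0.14, edgeR adjusted p = 0.000594) and higher with LM8 than in control (1.02 ± 0.13, edgeR adjusted p = 0.00167), with list medians of -0.10, 0.18 and 0.51. *Hp* (haptoglobin), whose complex with haemoglobin *Cd163* binds, averaged 582, 306 and 492 FPKM and was not called. By adjusted p alone *Hp* was lower with IL-33 (-0.93 ± 0.08, edgeR adjusted p = 5.81e-05). It was higher with LM8 than with IL-33 alone (0.69 ± 0.08, edgeR adjusted p = 0.00112).

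Of 10 monocyte genes, 5 rose and 1 fell with IL-33 (median 0.96), with *Ccr2*, the receptor of classical monocytes, going from 4.08 to 26.7 FPKM (2.71 ± 0.11, edgeR adjusted p = 2.68e-06) and *Plac8* from 11.8 to 42.6 (1.85 ± 0.07, edgeR adjusted p = 2.43e-06). By adjusted p with no minimum fold change, 6 were higher and 4 lower with IL-33. The most abundant gene, *Ace*, was among the lower, going from 310.6 to 172.6 FPKM (-0.85 ± 0.06, edgeR adjusted p = 3.14e-05). *Nr4a1*, chosen after its values were seen, was the one called lower (-1.06 ± 0.20, edgeR adjusted p = 0.0035). The summed FPKM of the list averaged 375.0 in control, 296.5 in IL-33 and 382.2 in IL-33+LM8 mice. *Ace* alone held 310.6, 172.6 and 265.2 FPKM of these sums, so they mostly follow that gene. With LM8, 2 rose against IL-33 (median 0.19): *F13a1*, the coagulation factor XIII A chain, from 1.43 to 7.51 FPKM (2.39 ± 0.10, edgeR adjusted p = 3.4e-05) and *Treml4* from 1.66 to 4.73 (1.51 ± 0.26, edgeR adjusted p = 0.00467). *F13a1* had been 2.38 FPKM in control, so that it, like *Lyve1*, was lowest with IL-33 and highest with LM8. Against control, 7 were called higher with LM8 (median 1.26).

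Of 9 genes of lipid-associated macrophages, 7 rose and none fell with IL-33 (median 1.33), led by the elastase *Mmp12* (1.00 to 100 FPKM, 6.64 ± 0.13, edgeR adjusted p = 5.03e-07) and the lipid receptor *Trem2* (0.456 to 7.75 FPKM, 4.08 ± 0.13, edgeR adjusted p = 1.4e-06). With LM8, 6 fell against IL-33 (median -1.40), among them *Gpnmb* (-2.50 ± 0.26, edgeR adjusted p = 0.000534) and *Spp1* (osteopontin), which averaged 123, 310 and 116 FPKM, and 3 were called higher than in control (median 0.17). Of 8 genes of alternative activation, 7 rose with IL-33 (median 5.32), with *Retnla* at 66.4 and 10210 FPKM and *Ccl24* rising by 8.08 ± 0.26 (edgeR adjusted p = 1.34e-06). With LM8, 3 fell against IL-33 (median -0.51), among them *Pdcd1lg2* by 2.41 ± 0.12 (edgeR adjusted p = 4.64e-05), *Retnla* was not called (-0.35 ± 0.17, edgeR adjusted p = 0.171), and all 7 were called higher than in control (median 4.22). *Retnla* lies in a family of similar genes, and its counts are uncertain to that extent. In lungs given house dust mite, the study saw the protein of *Retnla* mainly in the airway epithelial area. The cells behind the *Retnla* values here were not tested.

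**Figure D5:**
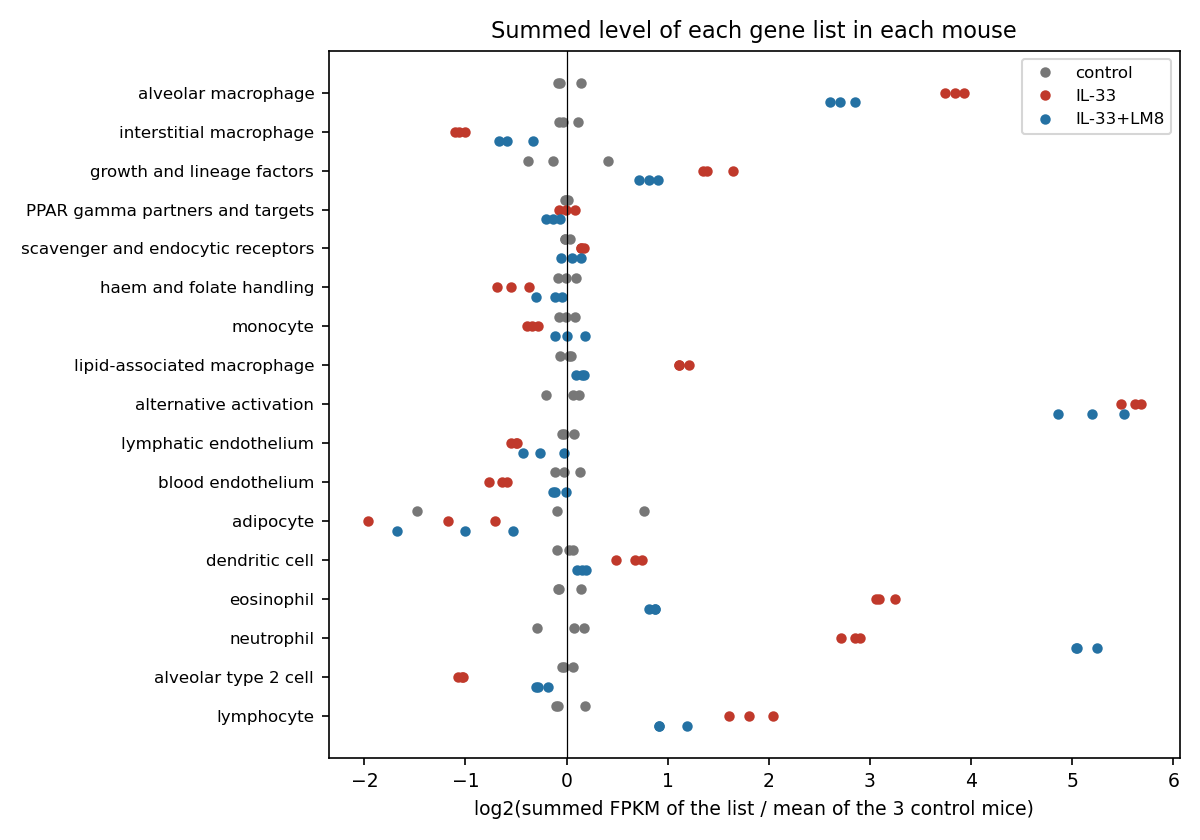
log2 of the summed FPKM of each gene list over the mean of the 3 control mice (horizontal axis) for each mouse of the control (grey), IL-33 (red) and IL-33+LM8 (blue) groups; each row is a list. The most abundant gene was *Chil3* for alveolar macrophages, *Cbr2* for interstitial macrophages and *Ace* for monocytes in every group. For alternative activation it was *Tgm2* in control and *Retnla* in the other mice, and for neutrophils *Retnlg* in IL-33 and *S100a9* in the other mice.

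The remaining 3 lists stand for cells that a whole lung holds. The lymphocyte list summed to 24.3 ± 2.77 FPKM in control, 86.3 ± 13.1 in IL-33 and 49.0 ± 5.49 in IL-33+LM8 mice (SD, n = 3), led by *Cd79a*, with 3 of 5 genes called higher with IL-33, none called with LM8 against IL-33 and 2 called higher against control (medians 1.84, -0.86 and 0.99). The dendritic cell list summed to 34.6 to 38.5, 51.7 to 61.9 and 39.6 to 42.1 FPKM, led by *Clec9a* in control mice and *Ccr7* in the others, with 3, 0 and 2 of 6 called higher (medians 0.79, -0.25 and 0.34). The alveolar type 2 list summed to 12340 to 13360, 6063 to 6283 and 10370 to 11210 FPKM, with *Sftpc* alone called, lower with IL-33 (-1.15 ± 0.07, edgeR adjusted p = 1.86e-05; list medians -0.55, 0.33 and -0.25). No marker of these 3 lists was at 0 in any library. The sums of the alveolar type 2 and blood endothelial lists were lowest in IL-33 mice, as *Marco* and *Lyve1* were, and those of the lymphocyte, dendritic cell and eosinophil lists highest there, as *Mrc1*, *Adgre1* and *Csf1r* were; the part of these cells in the values of the 9 genes was not tested.

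For each of the 9 genes the 3 genes most like it were taken by Pearson's r of log2(FPKM + 1) over the 9 mice, among 8567 genes of at least 5 FPKM; r then includes the differences between the groups, and no test was made. *Mrc1* was closest to *Rbpj* (r = 0.998), *Lig1* and *Fcgr2b*, *Adgre1* to *Ctss* (cathepsin S; r = 0.998), *Clec7a* (dectin-1) and *Lgals3* (galectin-3), and *Csf1r* to *Cd74* (the MHC class II invariant chain; r = 0.998), *Pip4k2b* and *Prex1*. *Marco* was closest to *Rsph1* (a protein of motile cilia; r = 0.994), *Naxd* and *Arl3*, and *Lyve1* to *Slfn5* (r = 0.983), *Plpp1* and *Ifngr1*. *Cd163* was closest to *Il1b* (r = 0.990), the neutrophil receptor gene *Cxcr2* and *Steap4*, and *Folr2* to *Msrb1* (r = 0.991), *C1ra* and *Cdk5rap3*. *Pparg* was closest to *Hmgb3* (r = 0.990), *Jak2* and *Chsy1*. *Fabp4* had the lowest value with its closest genes, *Tpt1-ps3* (r = 0.947), *Cdc27* and *Sat1*.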

How the data were processed

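RNA from whole lungs of 9 mice was sequenced by the study on an Illumina platform, and a single deposited table gives, for each mouse, unnormalised counts and FPKM per gene, both made by the authors' sequencing provider. Per the labels' processing notes, HISAT2 (2.0), StringTie (1.3.0) and Bowtie (0.12.2) and the build mm10 were used. Positions in the table overlapped those of RefSeq GRCm38 for 13.7% of 26627 genes matched by symbol, so gene positions are given as deposited, with the build not named by the table, and promoter positions as in GRCm38.p6.

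The members and lists were chosen with earlier results of these data known, and nothing here is independent support for them. A gene was tested where its FPKM averaged 0.5 or more across the 9 mice, and the test was run on the deposited counts with edgeR 4.0.16 (TMM, quasi-likelihood test, Benjamini-Hochberg adjustment, R 4.3.3), 1 fit of 6 mice per comparison. Alternatives were DESeq2 1.42.0, limma 3.58.1 on log2(FPKM + 1) and log2(FPKM + 0.1), other filters and scalings, leaving out each mouse, and a replicate block. The code was tested on simulated data. Lists were described by counts and medians only.

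The text names all 9 members and the 3 genes most like each member. List genes were drawn from the 2 most abundant of each list and the 2 called with the largest change per comparison, not all of which are named. Other names are marked as chosen after their values were seen, except list genes given as roles (ligands, complement chains, GM-CSF receptor) or as markers at 0. Same-numbered mice correlated in their deviations at 0.34, 0.36 and 0.69 in IL-33+LM8 against control, where differently numbered mice reached 0.24. The values were -0.48, 0.37 and -0.30 in IL-33 against control and -0.43, 0.23 and -0.47 between the IL-33 groups. The 0.69 was that of the replicate 3 libraries, both among the 3 that deviated together. Numbers were not taken as pairing mice in the main tests, and a replicate block was an alternative setting only. Nothing in the labels says that same-numbered mice share a litter, batch or day. Libraries of a group differed by more than sampling noise. Promoter sequences are from RefSeq.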

Additional observations from a re-analysis of the deposited data

How the results depend on the processing

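Of 453 fold changes of the 9 genes under the alternatives, 431 kept their direction and their side of the call, 10 lost the call, 10 gained it and 2 turned. All 10 gains came from dropping the minimum fold change, which can only add calls. On adjusted p alone, with no fold minimum, 8 of the 9 genes passed between the IL-33 groups and 6 in IL-33+LM8 against control, and 9193, 4459 and 4997 genes in IL-33 against control, IL-33+LM8 against IL-33 and IL-33+LM8 against control. At a mean FPKM of at least 5 the genes called were 1172, 304 and 469, since fewer were tested, and 1 of the 9 was called in IL-33+LM8 against control. With limma on log2(FPKM + 1), which understates changes of low genes, they were 1741, 439 and 588; *Marco* lost its call in IL-33+LM8 against IL-33 (0.99), leaving 1 of the 9, and *Pparg* (0.90) and *Cd163* (0.78) lost theirs in IL-33 against control. Without a filter *Fabp4* lost its call with IL-33 (edgeR adjusted p = 0.0652). With each mouse left out, the difference of *Folr2* between the IL-33 groups ranged from -0.065 to 0.21, negative without IL-33+LM8 replicate 2, and *Fabp4* from -0.71 to 0.093 in IL-33+LM8 against control, positive without control replicate 2; the cause was not tested.

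The fit with a replicate block called 2841, 836 and 1364 genes and 8, 2 and 3 of the 9, and changed no call of the 9. The fits without the 3 libraries that deviated together, chosen after seeing the data, called 2845, 696 and 1200 genes and 7, 2 and 3 of the 9. No scaling moved the median of all genes by over 0.1. At 3 mice per group the exact test of a single gene stops at 0.1; the lowest count of a member was 141, of *Folr2* in a control mouse. Whole-lung RNA carries no information on which cells hold a transcript.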
